A study of Mus musculus with 192 samples.

Results

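The mandibular bone (MdB) of wild-type (WT) mice was compared between mice that had flown to the International Space Station (FL_WT) and mice kept on the ground (GC_WT). The members were the 6 WT MdB libraries among the 192 libraries of the series, with 3 FL_WT mice (FL03, FL05 and FL06) and 3 GC_WT mice (GC03, GC07 and GC08), chosen by tissue, genotype and condition on the sample labels. All mice were males of the C57BL/6J background (C57BL/6 on the labels), and the labels give an age of 12 weeks for every mouse. Each mouse was caged alone, the flight mice for about a month on the station. Flight mice were dissected in the United States soon after splashdown and ground mice in Japan some months later, so that flight cannot be told apart from the site and date of dissection. Nrf2-KO mice, in which Nfe2l2, the gene of the stress-defense transcription factor Nrf2, is disrupted in the whole body, gave 3 FL_KO and 3 GC_KO libraries of the same bone. FL04, a knockout flight mouse with intestinal bleeding on return, was left out. Temporal bone (TpB) of WT mice gave 6 libraries per condition and was the other bone compared.

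The mouse mandible holds the molars and an incisor that grows throughout life. In the incisor, ameloblasts secrete the enamel proteins amelogenin (Amelx), ameloblastin (Ambn) and enamelin (Enam), and odontoblasts secrete dentin sialophosphoprotein (Dspp). Around the teeth lie the periodontal ligament, bone with osteoblasts, osteocytes and osteoclasts, a small marrow space, the attachments of the chewing muscles and the gingival epithelium. A dissected mandible can therefore carry RNA of all of these cells, and a bulk library does not separate fewer cells of a type from less RNA per cell.

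The 6 WT libraries held 14.3 M to 14.7 M expected counts (reads estimated per gene by RSEM), with TMM scaling factors of 0.98 to 1.05. No label says that litters or cultures were matched. The p-values of the mandible tests rest on the spread between mice within groups, estimated in 1 fit of 11 libraries that included the knockouts. The labelled tissue was checked against defining markers, in TPM, a level per length of transcript scaled to a common total. Amelx alone reached 58458 TPM in GC03, 76241 in GC07 and 113941 in GC08, against 94530 in FL03, 103549 in FL05 and 84881 in FL06. Amelx, Ambn, Odam, Dspp and the osteoblast gene Bglap (osteocalcin) together took 16.0% to 22.2% of all TPM. Marrow markers were near the floor, with Mpo and Elane of neutrophil precursors at no more than 0.55 and 0.38 TPM, and listed at 0 in 4 and 5 of the 6 libraries. The osteocyte genes Mepe and Fgf23 and the adipocyte gene Adipoq stayed under 0.2 TPM. Nfe2l2, the gene deleted in the knockouts, was at 95.3 to 105 TPM in GC_WT and 89.3 to 109 TPM in FL_WT, against 30.3 to 37.5 TPM in the knockout libraries used.

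No gene passed an adjusted p of 0.05 between FL_WT and GC_WT in edgeR's quasi-likelihood test over 16361 genes, in either direction (0%). The smallest adjusted p by edgeR was 0.106. Without the filter on low counts the same test called 86 genes, 27 higher and 59 lower, so that the absence of calls depended on the filter. At an unadjusted p under 0.05, 719 genes were higher (4.39%) and 701 lower (4.28%) in flight, and the median log2 fold change over all genes was -0.01. The 3 flight mice lay above the 3 ground mice without overlap, in CPM (counts scaled to a common library size) with TMM factors, for 1161 genes (7.10%), and below them for 1350 (8.25%). DESeq2 on the same libraries called 61 genes, 19 higher (0.10%) and 42 lower (0.221%), of which 56 were among the 100 genes with the smallest p in edgeR and 54 did not overlap between groups. On log2(TPM + 1), limma called 2 of 11499 genes, 1 higher (0.00870%) and 1 lower (0.00870%), and its genes at an unadjusted p under 0.05 divided into 528 higher (4.59%) and 211 lower (1.83%). That fit differed from edgeR's in unit, filter and tool together, and with RLE factors in edgeR the division was 746 higher and 687 lower. Principal components of log2 CPM were taken over the 11 MdB libraries fitted, knockouts included. Along the first, which held 18.5% of the variance, the FL_WT mice lay between -37.54 and -22.83 and the GC_WT mice between -4.70 and 17.06. The FL_KO mice lay at 12.30 and 13.49, within the 11.32 to 25.64 of the GC_KO mice. Since few single genes passed any test, tooth, bone and marrow genes were described as groups. Counts of list members are to be read against the shares of all genes given here, and against the 48.4% of all genes above 0. The spread of the members is drawn list by list.

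**Figure D1:**
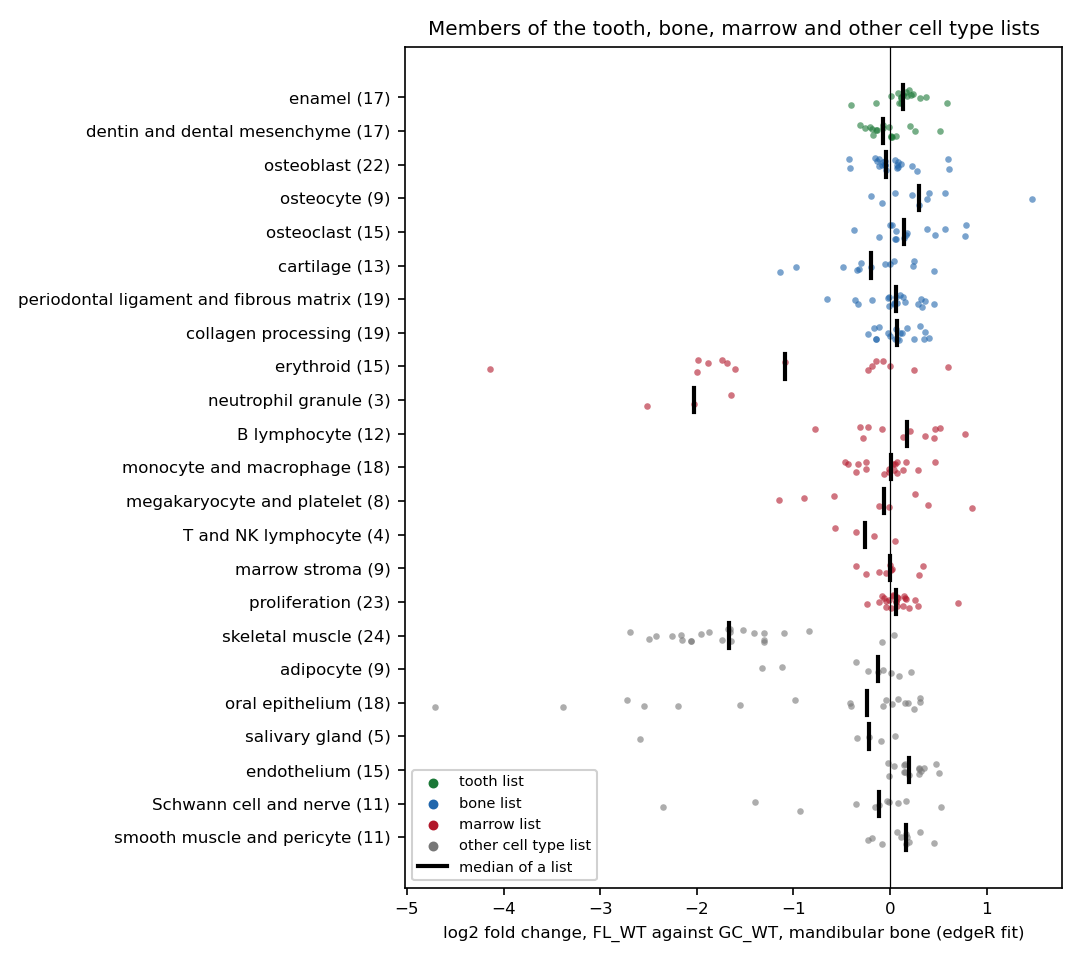
Each point is the log2 fold change (FL_WT against GC_WT, edgeR fit) of 1 tested gene, placed by the list it belongs to, with the number of tested members in brackets; black bars are list medians. Tooth and bone lists lay close to 0, and the erythroid (median -1.09) and skeletal muscle (-1.67) lists lay to the left, as did the 3 neutrophil granule genes that passed the count filter through the ground mice.

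Enamel genes were close to the ground level. All 17 members of the enamel list were tested, with a median log2 fold change of 0.13, where 15 were above 0 (48.4% of all genes were), 1 was higher and 1 lower at an unadjusted p under 0.05. Amelx, the main enamel matrix protein, had a log2 fold change of 0.11 ± 0.42 (SE), and Ambn one of 0.11 ± 0.31. Their ground mice differed from each other more than the groups did, since Ambn was at 24941, 37976 and 49449 TPM in GC03, GC07 and GC08, and at 45896, 44460 and 36631 TPM in FL03, FL05 and FL06. Odam, made by mature ameloblasts, was steadier, at 17498 to 18211 TPM on the ground and 14483 to 18426 TPM in flight. The ion exchanger gene Slc24a4, which carries calcium into maturing enamel, was the member with the smallest p. It was at 54.8, 87.8 and 118 TPM in the ground mice and at 128, 132 and 169 TPM in the flight mice, without overlap, with a log2 fold change of 0.59 ± 0.24 (edgeR, adjusted p = 0.518) that was 0.34 without GC03 and 0.91 without GC08. Odaph, needed for enamel mineralization, was at 33.2 to 44.0 TPM on the ground and at 29.8 to 30.8 TPM in flight, below all ground mice. The proteases Mmp20 and Klk4, which cut and remove the enamel matrix, had log2 fold changes of 0.17 ± 0.13 and 0.20 ± 0.25, and their groups overlapped in scaled CPM.

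The dentin and dental mesenchyme list had 17 of 18 members tested and a median of -0.07, with 7 above 0 and only 1, below 0, at an unadjusted p under 0.05. Dspp, the main gene of dentin, was at 9441, 8956 and 7207 TPM in GC03, GC07 and GC08. In FL03, FL05 and FL06 it was at 11237, 11328 and 9370 TPM, so that the lowest flight mouse lay below the highest ground mouse. Its log2 fold change of 0.26 ± 0.21 did not pass (edgeR, adjusted p = 0.772). Msx2, a homeobox gene of dental mesenchyme and epithelium, was the member at an unadjusted p under 0.05, with a log2 fold change of -0.18 ± 0.07, while Wnt10a, a ligand of odontoblasts, was at -0.15 ± 0.10.

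**Figure D2:**
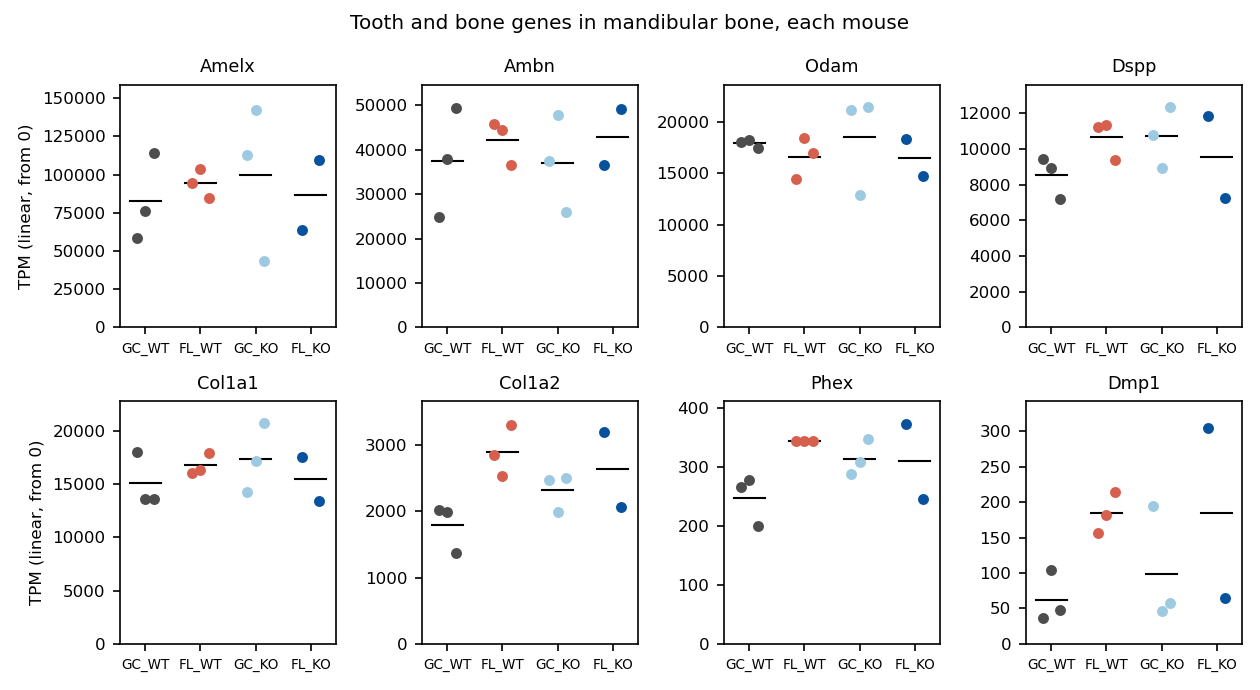
TPM of 8 tooth and bone genes on linear axes that start at 0; each point is 1 mouse, and bars are group means of GC_WT, FL_WT (3 mice each), GC_KO (3) and FL_KO (2). Amelx, Ambn, Odam, Dspp and Col1a1 overlapped between GC_WT and FL_WT, while Col1a2, Phex and Dmp1 were higher in all 3 FL_WT mice.

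Bone lists had medians near 0, and single genes of matrix and mineral stood apart from them. The osteoblast list had a median of -0.05 over 22 members, with 10 above 0, and 2 at an unadjusted p under 0.05, both higher (Col1a2 and Runx2). Bglap was at 48854, 43140 and 34192 TPM on the ground and 46333, 42876 and 31237 TPM in flight, which overlapped throughout, and Col1a1 had a log2 fold change of 0.07 ± 0.17. Col1a2, which encodes the other chain of type I collagen, was at 2018, 1980 and 1362 TPM in GC03, GC07 and GC08 and at 2848, 2527 and 3291 TPM in FL03, FL05 and FL06. All flight mice lay above all ground mice, with a log2 fold change of 0.61 ± 0.18 (edgeR, adjusted p = 0.413; DESeq2, adjusted p = 0.0633). Runx2, the transcription factor that sets the osteoblast fate, was at 31.8 to 33.5 TPM on the ground and at 32.5, 44.4 and 52.6 TPM in flight.

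Osteocyte genes had the highest median among the bone lists, 0.30 over 9 tested of 12 members, with 7 above 0. At an unadjusted p under 0.05, 3 members were higher and 1 lower, against 4.39% and 4.28% of all genes. Dmp1, a phosphoprotein of mineralizing matrix that odontoblasts and osteocytes make, was at 36.8, 104 and 47.2 TPM in GC03, GC07 and GC08. In FL03, FL05 and FL06 it was at 157, 182 and 215 TPM, above all ground mice, with a log2 fold change of 1.47 ± 0.63 (edgeR, adjusted p = 0.544; DESeq2, adjusted p = 0.730). Phex, an endopeptidase of phosphate balance, was at 266, 277 and 200 TPM on the ground and 343, 344 and 344 TPM in flight. Ptprz1, a receptor phosphatase, was at 27.4 to 42.8 TPM on the ground and 55.5 to 59.9 TPM in flight. Sost, the Wnt inhibitor of mature osteocytes, was low in all mice, at 2.57 to 3.24 TPM on the ground and at 3.15, 2.49 and 7.27 TPM in flight. Without FL06 the median of the osteocyte list was 0.11.

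Osteoclast genes had a median of 0.14 over 15 tested of 19 members. Although 13 were above 0, none reached an unadjusted p under 0.05. Ctsk, the collagen-degrading protease of osteoclasts, was at 83.3 to 96.4 TPM on the ground and 96.4 to 105 TPM in flight, with a log2 fold change of 0.06 ± 0.11. Acp5, the tartrate-resistant phosphatase, was at 8.13, 14 and 12.0 TPM against 17.8, 20.2 and 10.9 TPM, and Mmp9 at 3.63, 4 and 4.27 TPM against 5.95, 7.73 and 4.71 TPM. In Mmp9 all flight mice lay above the ground mice in TPM but overlapped them in scaled CPM.

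Genes that process collagen had a median of 0.07 over 19 members, 13 of them above 0, with 4 at an unadjusted p under 0.05, all higher. Without overlap, 5 lay above the ground mice and 2 below them, against 7.10% and 8.25% of all genes. These 4 were Lox and Loxl4, which cross-link collagen, and Adamts2 and Adamts14, which cut its N-terminal propeptide. Lox was at 333, 334 and 234 TPM on the ground and at 442, 419 and 419 TPM in flight (log2 fold change 0.40 ± 0.16). Loxl4 was at 45.7 to 47.3 TPM on the ground and 58.6 to 65.5 TPM in flight (0.31 ± 0.11). The prolyl hydroxylase gene P4ha1 stayed at 0.00 ± 0.09. In the periodontal ligament and fibrous matrix list, with a median of 0.06 over 19 members and 2 higher at an unadjusted p under 0.05, Col12a1 had a log2 fold change of 0.32 ± 0.13, while Postn, the periostin gene of the ligament, had 0.10 ± 0.33. The cartilage list had a median of -0.20 over 13 tested of 19 members, with Col11a1 higher (0.45 ± 0.16) and Cnmd lower (-0.97 ± 0.35) at an unadjusted p under 0.05. Col2a1, the defining collagen of cartilage, was at 0.41 TPM or less in every WT mouse.

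Most tested red cell genes were lower in flight. Of the 25 erythroid genes listed, 24 were in the table and 15 were tested. Their median log2 fold change was -1.09, and at an unadjusted p under 0.05 there were 7 lower members and 1 higher one, against 4.28% and 4.39% of all genes. The median was -0.66 in a fit of only the WT groups and -0.23 with FL04 included. DESeq2 called 6 of the erythroid genes lower (0.221% of all genes were). They were the adult globin genes Hba-a1, Hba-a2, Hbb-bs and Hbb-bt, the heme synthesis gene Alas2 and the anion exchanger gene Slc4a1. Since the results turn on the globin genes, the RefSeq windows of 250 bases before to 50 after their starts (GRCm38.p6) are shown 5′ to 3′, Hbb-bs on the minus strand of chr7:103827879-103828178, Hbb-bt on the minus strand of chr7:103813874-103814173, Hba-a1 on the plus strand of chr11:32283422-32283721 and Hba-a2 on the plus strand of chr11:32296242-32296541. Capitals mark CACCC on either strand, the letters of the box known from globin promoters, which 57.5% of the 32851 windows in the same table also hold.
Hbb-bs: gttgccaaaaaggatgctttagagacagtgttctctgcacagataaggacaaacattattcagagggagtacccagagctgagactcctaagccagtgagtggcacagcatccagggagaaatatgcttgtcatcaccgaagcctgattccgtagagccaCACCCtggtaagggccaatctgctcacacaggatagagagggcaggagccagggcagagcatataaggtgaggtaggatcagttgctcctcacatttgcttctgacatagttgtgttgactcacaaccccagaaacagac
Hbb-bt: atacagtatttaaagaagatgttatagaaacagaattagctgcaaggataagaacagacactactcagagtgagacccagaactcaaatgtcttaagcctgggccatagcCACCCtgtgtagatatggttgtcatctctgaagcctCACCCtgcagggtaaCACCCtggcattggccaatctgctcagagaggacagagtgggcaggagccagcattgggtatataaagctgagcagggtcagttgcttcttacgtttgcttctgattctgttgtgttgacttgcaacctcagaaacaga
Hba-a1: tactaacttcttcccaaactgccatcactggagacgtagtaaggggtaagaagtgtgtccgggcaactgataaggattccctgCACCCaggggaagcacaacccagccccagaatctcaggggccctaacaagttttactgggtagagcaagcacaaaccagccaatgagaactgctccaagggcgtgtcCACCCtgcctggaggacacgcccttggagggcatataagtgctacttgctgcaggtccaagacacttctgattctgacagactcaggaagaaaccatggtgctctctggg
Hba-a2: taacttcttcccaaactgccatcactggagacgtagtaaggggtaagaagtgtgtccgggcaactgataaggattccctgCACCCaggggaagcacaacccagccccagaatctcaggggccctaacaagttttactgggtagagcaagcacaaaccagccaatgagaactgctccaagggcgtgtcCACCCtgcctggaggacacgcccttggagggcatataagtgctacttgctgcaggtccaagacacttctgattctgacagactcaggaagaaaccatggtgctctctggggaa

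The Hba-a2 window equals the Hba-a1 window shifted by 3 bases over all 297 shared positions. How RSEM divided reads between these paired globin genes was not examined, so that their counts are uncertain one by one. Hba-a2 was at 760, 425 and 654 TPM in GC03, GC07 and GC08 and at 242, 215 and 169 TPM in FL03, FL05 and FL06, a log2 fold change of -1.61 ± 0.31 (edgeR, adjusted p = 0.231; DESeq2, adjusted p = 0.00797). Hbb-bs was at 438, 264 and 410 TPM on the ground and 159, 122 and 74.6 TPM in flight, a log2 fold change of -1.69 ± 0.34 (edgeR, adjusted p = 0.296; DESeq2, adjusted p = 0.0265). Every flight mouse lay below every ground mouse for all 4 globin genes. Alas2 was at 5.99, 2.32 and 5.50 TPM on the ground and 1.57, 1.10 and 0.70 TPM in flight, on 213 and 53 counts over the mice of each group. Slc4a1, the band 3 protein of the red cell membrane, rested on 77 counts over the ground mice and 4 over the flight mice, and so passed the count filter through the ground mice. Without that filter, edgeR called all 4 globin genes, Alas2 and Slc4a1 lower (adjusted p = 0.000600 to 0.0150). Markers of red cell precursors were at or near 0, with Gata1 at 0.06 TPM or less and listed at 0 in 4 of 6 libraries, and Klf1 at 0.9 TPM or less. In the other direction, Tfrc, the transferrin receptor, which many dividing cells also carry, was at 72.2 to 95.7 TPM on the ground and at 108, 130 and 184 TPM in flight, with a log2 fold change of 0.60 ± 0.20. The list median was -0.36 without GC03, -0.53 without GC08 and -1.48 without FL03.

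Other marrow lineages were too sparse for a list result. Only 3 of 23 neutrophil granule genes passed the count filter, with 7 to 34 counts in each ground mouse and 2 to 8 in each flight mouse. They passed through the ground group, where they were high, so that their direction carries no information on the list. S100a9 was at 5.20, 2.68 and 7.45 TPM on the ground and 1.62, 2.16 and 1.26 TPM in flight, S100a8 had a log2 fold change of -2.03 ± 0.60, and Ltf was at 0.54, 0.43 and 2.15 TPM against 0.22, 0.22 and 0.76 TPM, which overlapped in TPM. These genes are also expressed in stressed epithelium (S100a8 and S100a9) or in gland secretions (Ltf). The B lymphocyte list had a median of 0.17 over 12 tested of 24 members, with 0 in each direction at an unadjusted p under 0.05. Monocyte and macrophage genes had a median of 0.01 over 18 members, with Csf1r, the receptor that marks the lineage, at 14.2 to 15.5 TPM on the ground and 15.6 to 17.5 TPM in flight. Of 8 tested platelet genes 1 was higher (Thbs1, also made by stroma) and 2 were lower at an unadjusted p under 0.05, and Pf4 had a log2 fold change of -0.58 ± 0.28. Marrow stroma (9 tested) and proliferation (23 tested) lists had medians of -0.00 and 0.06. Mki67, a marker of cycling cells, was at 5.33, 12.8 and 7.51 TPM on the ground and 6.13, 5.09 and 18.9 TPM in flight, so that mice of the same group differed by more than the groups.

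**Figure D3:**
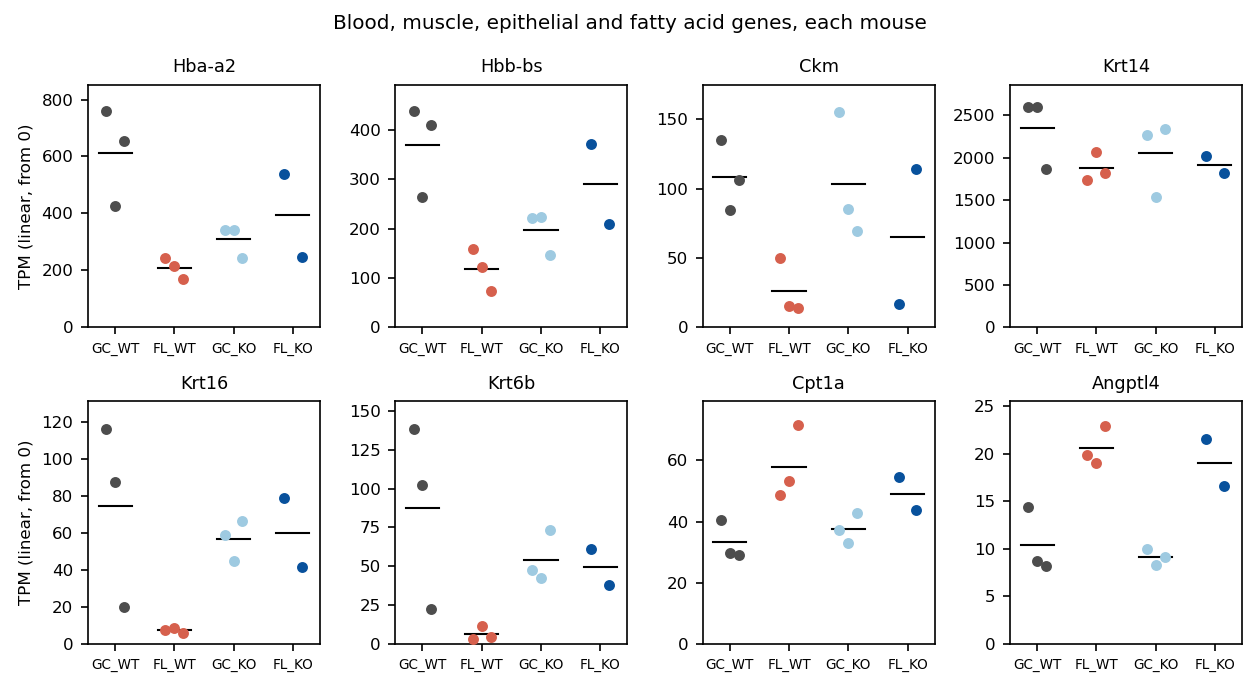
TPM of 8 genes of red cells (Hba-a2, Hbb-bs), skeletal muscle (Ckm), epithelium (Krt14, Krt16, Krt6b) and fatty acid handling (Cpt1a, Angptl4) on linear axes that start at 0; each point is 1 mouse and bars are group means. All 3 FL_WT mice lay below the GC_WT mice for Hba-a2, Hbb-bs, Ckm, Krt16 and Krt6b and above them for Cpt1a and Angptl4, and Krt14 overlapped.

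Skeletal muscle genes were lower in flight in most members. Of 29 listed, 24 were tested, with a median of -1.67 and 23 below 0. At an unadjusted p under 0.05 stood 21 of them, all lower, and 18 lay below the ground mice without overlap, against 4.28% and 8.25% of all genes. Without FL03 the median was -2.59. None passed the adjustment (edgeR, smallest adjusted p = 0.392), and DESeq2 called 0 of the list, while edgeR without the count filter called Myl1 (adjusted p = 0.0130) and not Ckm. Ckm, the muscle creatine kinase, was at 135, 84.4 and 106 TPM in GC03, GC07 and GC08 and at 49.7, 15.7 and 14.1 TPM in FL03, FL05 and FL06. Myl1, a myosin light chain of fast fibers, was at 93.6 to 136 TPM on the ground and 14.5 to 38.8 TPM in flight (log2 fold change -2.42 ± 0.64). The summed level of the list was 890 to 1436 TPM in GC_WT and 187 to 578 TPM in FL_WT, so that FL03 carried more than the other flight mice. Slow fiber genes were near 0, with Myh7 at 0.06 TPM or less and Myl2 at 0.2 TPM or less. How much attached muscle each dissected mandible carried is not recorded, and its part in the other results was not tested. Among further cell types, 13 of 15 tested endothelial genes were above 0 (48.4% of all genes were), with a median of 0.20. At an unadjusted p under 0.05, 2 were higher (4.39% of all genes), and 8 lay above the ground mice without overlap (7.10%). Tie1 was at 6.25 to 7.67 TPM on the ground and 9.87 to 10.5 TPM in flight, whereas Pecam1, the general marker of endothelium, had a log2 fold change of 0.04 ± 0.21. The adipocyte (9 tested), smooth muscle and pericyte (11), Schwann cell and nerve (11) and salivary gland (5) lists had medians of -0.13, 0.16, -0.11 and -0.22. These were not stable, since the salivary median was -2.0 in DESeq2, -1.86 without the count filter and -0.64 without FL03. In limma the Schwann cell median was 0.09 and the adipocyte median 0.03, and without FL05 the smooth muscle median was -0.04. Car6 of salivary glands ranged from 40.0 to 280 TPM within the flight group.

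**Figure D4:**
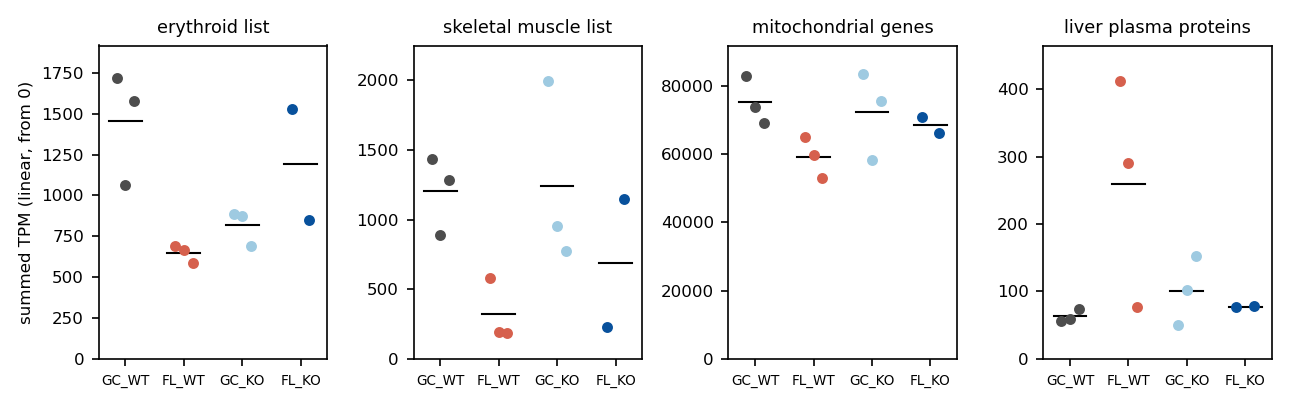
Summed TPM of 4 gene lists on linear axes that start at 0; each point is 1 mouse, and bars are group means of GC_WT, FL_WT, GC_KO and FL_KO. Erythroid, skeletal muscle and mitochondrially encoded genes were lower in all 3 FL_WT mice than in the GC_WT mice, and liver plasma proteins were high in FL03 (412 TPM) and FL05 (290 TPM) but not in FL06 (77.2 TPM).

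Several keratin genes were lower in flight. Krt14 and Krt5, the keratins of basal cells, were at 1864 to 2596 and 1360 to 1439 TPM on the ground and 1737 to 2061 and 1193 to 1736 TPM in flight, with log2 fold changes of -0.40 ± 0.18 and -0.04 ± 0.16. Krt16, Krt6a and Krt6b, keratins of activated and suprabasal epithelium, were lower. Krt16 was at 116, 87.6 and 19.7 TPM in GC03, GC07 and GC08 and at 7.38, 8.53 and 5.99 TPM in FL03, FL05 and FL06, a log2 fold change of -3.39 ± 0.53 (edgeR, adjusted p = 0.107; DESeq2, adjusted p = 1.41e-05). Krt6b, which shares reads with Krt6a, was at 138, 102 and 22.6 TPM against 3.30, 11.7 and 4.72 TPM (-3.77 ± 0.61). The oral epithelium list as a whole had a median of -0.23 over 18 tested of 20 members. Without GC07 that median was 0.05, so its direction rests on this ground mouse. At an unadjusted p under 0.05, 6 members were lower (Krt16, Krt6a, Sprr1a, Krt10, Krt76 and Dsg3) and 0 higher, against 4.28% and 4.39% of all genes. DESeq2 called 3 of the list lower (0.221% of all genes were). Outside that list, several with a known role in surface epithelium were among those DESeq2 called lower. They were the interleukin 1 antagonist Il1rn (2.80 to 6.82 TPM on the ground, 0.56 to 1.63 TPM in flight), Il1f9, the airway-type serine proteases Tmprss11b, Tmprss11d and Tmprss11g, Calml3 and Sprr1b. A list of 36 genes of keratinocyte differentiation and stress was put together after these values were seen, with 29 tested. Its median was -2.35, with 22 lower at an unadjusted p under 0.05 (4.28% of all genes were). The list holds Krt16, Krt6b, Il1rn and other genes named here, so that its median and counts follow from that choice and test nothing. Without GC08, the ground mouse with the lowest Krt16, edgeR called 12 genes, 1 higher and 11 lower, among them Krt16, Krt6a, Krt6b, Il1rn and Il1f9 on the lower side.

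Some genes of fatty acid use stood among the higher ones. Cpt1a, which carries fatty acids into mitochondria, was at 40.6, 29.8 and 29.2 TPM on the ground and 48.6, 53.2 and 71.4 TPM in flight (log2 fold change 0.70 ± 0.13; DESeq2, adjusted p = 0.000702). Angptl4, a secreted inhibitor of lipoprotein lipase, was at 14.4, 8.75 and 8.16 TPM on the ground and 19.9, 19.0 and 22.9 TPM in flight (0.90 ± 0.18; DESeq2, adjusted p = 0.00473). Hadhb had a log2 fold change of 0.34 ± 0.11, without overlap. Pdk4, which responds to fasting in muscle and liver, was level at -0.02 ± 0.17. Over 24 tested of 26 genes of fatty acid oxidation and of PPAR targets, a list put together after these values were seen, the median was 0.10. In it 15 genes were above 0 and 9 below. Without overlap, 5 lay above and 1 below the ground mice, against 7.10% and 8.25% of all genes. The 6 at an unadjusted p under 0.05 were all higher (4.39% of all genes were). Since the list was chosen with these values known, its counts describe it and test nothing. Lpl, the gene of lipoprotein lipase, was outside the list. It was lower in every flight mouse, with 410 counts over the ground mice and 163 over the flight mice.

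Outside these groups, Tppp3, a tubulin-binding protein of ciliated cells and tendon sheath (chr8:105467493-105471526, GRCm38), had the smallest p. It was at 42.9, 56.5 and 38.5 TPM on the ground and at 22, 18.8 and 26.3 TPM in flight, a log2 fold change of -1.11 ± 0.14 (edgeR, adjusted p = 0.106; DESeq2, adjusted p = 6.74e-07). Fndc1, which encodes a fibronectin-domain protein, was at 23.0 to 23.4 TPM on the ground and at 35.8, 33.9 and 43.2 TPM in flight (0.61 ± 0.10; edgeR, adjusted p = 0.107). Dio2, the deiodinase that activates thyroid hormone, was at 12.1 to 15.2 TPM on the ground and at 38.4, 22.1 and 25.4 TPM in flight (DESeq2, adjusted p = 0.00797). The small GTPase gene Rab43 was at 4.13 to 5.06 TPM against 6.92 to 9.55 TPM (0.91 ± 0.15).

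Plasma protein genes of the liver were high in FL03 and FL05. This was seen among the largest positive changes, and a list of 24 such genes was then put together. Alb, serum albumin, was at 10.9, 13.2 and 18.3 TPM on the ground and at 110, 82.8 and 13.5 TPM in FL03, FL05 and FL06. Apoa1 was at 1.99 to 3.75 TPM on the ground and at 27.2, 16.3 and 3.73 TPM in flight. Mup16, a major urinary protein gene with near-identical copies, was listed at 0 in the 3 ground mice and at 8.55, 4.93 and 1.65 TPM in the flight mice. For 13 of the 24 genes FL03 and FL05 lay above all ground mice in TPM and FL06 did not. In 5 of the 24 all flight mice lay above the ground mice in scaled CPM (7.10% of all genes), and DESeq2 called 7 higher (0.10%). As the list followed from the values, these counts describe it and test nothing. Where FL06 was left out, edgeR called 7 genes, all higher, of which Ahsg, Apob, C3, Gc and Serpina1a encode plasma proteins, and Cps1 a urea cycle enzyme of the liver. In the knockouts the summed level of the list was 49.8 to 152 TPM in GC_KO and 77.3 to 77.8 TPM in FL_KO. The source of these transcripts was not tested.

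The Wnt list had 20 of 25 tested members above 0 (median 0.12) with 0 in either direction at an unadjusted p under 0.05, and Axin2, a direct target of the pathway, had a log2 fold change of 0.06 ± 0.10. BMP and TGF-beta genes had a median of -0.01 over 28 members, with 2 lower at an unadjusted p under 0.05, Bmp6 (-0.30 ± 0.13) and its antagonist Nog (-0.32 ± 0.14). Nrf2 targets had a median of -0.09 over 31 tested of 33 members. At an unadjusted p under 0.05, 6 were lower and 1 higher, against 4.28% and 4.39% of all genes. Nqo1, the quinone reductase used as a readout of Nrf2, was at 26.3, 29.8 and 25.4 TPM on the ground and at 24.6, 19.2 and 25.1 TPM in flight (-0.33 ± 0.13), and Cbr3 was the one higher member, at 19.6 to 24.8 TPM against 29.1 to 31.9 TPM. In the glucocorticoid response list (15 members, median 0.20), Fkbp5, the cochaperone induced by the receptor, was at 14.8, 8.13 and 6.03 TPM on the ground and 17.6, 12.9 and 21.4 TPM in flight, while Tsc22d3 had a log2 fold change of 0.13 ± 0.19. Of this list, Fkbp5 and Angptl4 were higher, and Ddit4 (-0.34 ± 0.14) and Mt2 (-0.58 ± 0.24) lower, at an unadjusted p under 0.05. Medians of the heat shock, hypoxia and glycolysis, p53 target, interferon stimulated, immediate early and circadian clock lists lay between -0.06 and 0.07. The clock median was 0.41 without GC03, the interferon median -0.15 without FL05, and the immediate early median 0.23 in limma. Unfolded protein response genes had a median of -0.13 over 20 members, with 2 lower at an unadjusted p under 0.05, the endoplasmic reticulum proteins Manf (-0.32 ± 0.10) and Pdia6 (-0.23 ± 0.09), and MHC class II genes had a median of -0.16 over 9 members.

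All 13 mitochondrially encoded genes were below 0, with a median of -0.45. At an unadjusted p under 0.05, 8 were lower (4.28% of all genes), and 10 lay below the ground mice without overlap (8.25%). Expected counts of some came in coarse steps. Those of mt-Nd4l were 444, 296 and 370 in GC03, GC08 and GC07, and 74, 0 and 222 in FL03, FL05 and FL06. How RSEM divided reads here was not examined, so that counts of single genes, and their p-values, are uncertain. Their summed level was 82893, 73916 and 69180 TPM in GC03, GC07 and GC08 and 65103, 59825 and 52937 TPM in FL03, FL05 and FL06. The nuclear genes of oxidative phosphorylation had a median of -0.09 over 77 members. Of these, 21 were above 0 (48.4% of all genes were) and 56 below, with 1 lower at an unadjusted p under 0.05 (4.28%). Genes of cytosolic ribosomal proteins had a median of -0.13 over 81 tested members, with 8 above 0 (48.4%) and 73 below. At an unadjusted p under 0.05, 11 of them were lower (4.28% of all genes), of which DESeq2 called Rps27a. One of these 11, Rpl3l, is a muscle form and was lower with the muscle genes (-1.71 ± 0.53).

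In the Nrf2-KO mandible, 0 genes passed an adjusted p of 0.05 by edgeR between FL_KO and GC_KO (0%), with 277 higher (1.69%) and 293 lower (1.79%) at an unadjusted p under 0.05. With 2 flight mice in that group the knockout comparison was the less precise. The erythroid list had a median of -1.09 in WT and 0.13 in the knockouts. There, 10 of the same 15 genes were above 0 (51.0% of all genes were). The skeletal muscle list had -1.67 in WT and -0.79 in the knockouts, where 24 of 24 were below 0. Of these, 1 was lower at an unadjusted p under 0.05. Its summed level was 227 TPM in FL01 and 1151 TPM in FL02, against 774 to 1994 TPM in GC_KO, so that only FL01 lay below the ground mice. Medians in WT and the knockouts were 0.30 and -0.03 for the osteocyte list, and 0.13 and -0.11 for the enamel list. Angptl4 was at 8.27 to 9.94 TPM in GC_KO and at 21.5 and 16.6 TPM in FL_KO (log2 fold change 1.04 ± 0.20). Krt16 was at 45.0 to 66.4 TPM in GC_KO and at 78.7 and 41.6 TPM in FL_KO, which overlapped. The difference between the flight responses of the genotypes passed for 0 of 16361 genes in edgeR (0%), with 827 at an unadjusted p under 0.05 (5.05%), and for 7 genes in DESeq2 (0.0239%). Among those 7, the response of Hba-a1 was lower in WT than in the knockouts by a log2 difference of -2.83 and that of Hbb-bt by -2.92 (DESeq2, adjusted p = 0.0283 and 0.0123). On the ground, Hba-a1 was at 77.9 to 130 TPM in GC_KO and 154 to 267 TPM in GC_WT, and Hbb-bt at 18.9 to 31.1 TPM and 31.1 to 77.3 TPM.

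**Figure D5:**
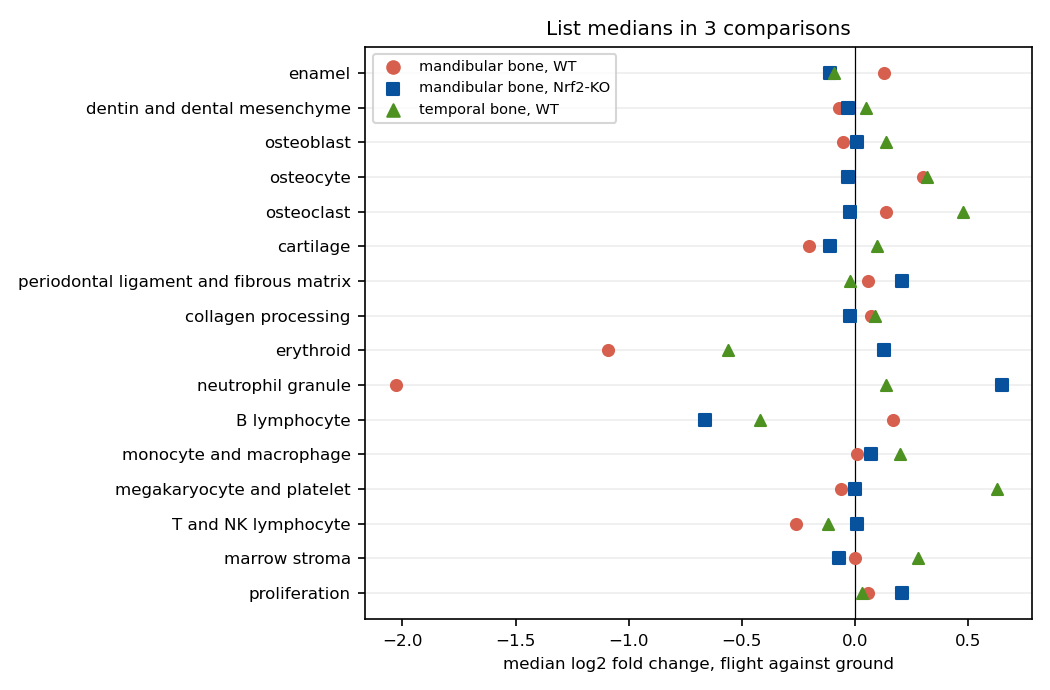
Median log2 fold change of each tooth, bone and marrow list, flight against ground, in WT mandibular bone (circles), Nrf2-KO mandibular bone (squares) and WT temporal bone (triangles). Most medians lay within 0.5 of 0; the erythroid list was at -1.09, 0.13 and -0.56 in the 3 comparisons.

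Temporal bone of WT mice was set beside the mandible, since 6 mice per condition were available there and the 6 MdB mice gave both bones. Between FL_WT and GC_WT of TpB, 0 of 18661 genes passed an adjusted p of 0.05 by edgeR (0%), with 291 higher (1.56%) and 841 lower (4.51%) at an unadjusted p under 0.05. The skeletal muscle list had a median of -0.78 there with 29 of 29 members tested and 0 above 0 (49.9% of all genes were), and the erythroid list one of -0.56. Osteoclast genes had a median of 0.48 in TpB and 0.14 in MdB, and osteocyte genes 0.32 and 0.30. Nuclear oxidative phosphorylation genes had a median of -0.36 in TpB, where 64 of 77 were lower at an unadjusted p under 0.05, against -0.09 and 1 in MdB. The test of the difference between the bones itself called 0 of 18661 genes by edgeR (0%), with 590 at an unadjusted p under 0.05 (3.16%), and 22 of the 77 oxidative phosphorylation genes were among those 590. With the mouse as a block, which uses only the 6 mice with both bones, 0 genes were called and 2330 of 18108 (12.9%) were at an unadjusted p under 0.05.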

How the data were processed

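The members and gene lists were chosen with earlier results of these data known. RNA was poly(A)-selected, made into strand-specific libraries and read as single ends. Per the submitters' processing notes, STAR 2.6.1 mapped reads to mm10 and RSEM 1.3.1 counted them. Expected counts, as deposited, are RSEM's unnormalized estimates, in which reads that fit several similar genes are divided among them. Deposited TPM, from the same run, serve here for levels. The table lists 54752 genes of GENCODE vM20, and 504 other per-sample columns were not used. Coordinates came from GENCODE vM21 on GRCm38, which held 99.95% of the identifiers. Which of 3 extraction reagents served the mandible, and the strand setting of counting, are not given in the sources used here.

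Expected counts were rounded and analysed in R 4.3.3 with edgeR 4.0.16 (filterByExpr by group, TMM, quasi-likelihood test, Benjamini-Hochberg over all genes) in 1 fit of the 4 MdB groups without FL04 (11 libraries). Standard errors were taken as the log2 fold change over the square root of F. DESeq2 1.42.0 and limma 3.58.1 on log2(TPM + 1), for genes with a mean of at least 5 TPM in a group, were alternatives. DESeq2 percentages are of the genes with an adjusted p (18996 for flight in WT). Counts were simulated for FL_WT against GC_WT (16112 genes), with changes planted only in well-counted genes. There edgeR called 85 of 100 genes changed by 2-fold and 100 of 100 changed by 4-fold, with 11 false calls. DESeq2 called 87 and 99 of them, with 24 false calls. These shares do not carry over to sparse genes, and Krt16 (-3.39) was not called by edgeR in the data themselves. No pair of libraries of a group was as close as sampling noise (chi-square per gene of 5.47 to 35.5).

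Named genes were the first 2 of each list, up to 4 members with the smallest p and at least 5 TPM, the 10 largest changes per direction at an unadjusted p under 0.01 without overlap and with at least 5 TPM, up to 5 per direction called by a tool, and Nfe2l2. Other genes (among them Mmp20, Klk4, Odam, Col1a1, Tfrc, Slc4a1, S100a8, Hadhb, Pdk4, Rpl3l and the plasma protein genes) were named after their values were seen. Some genes that the rule names are not reported here. The same mouse gave both bones, so MdB and TpB libraries are paired by animal. The correlation of their deviations from the group means was -0.04 to 0.03.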

Additional observations from a re-analysis of the deposited data

Results flagged for a closer look

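The flight response differed between WT and Nrf2-KO mandible, by DESeq2's test of the difference, for 7 genes that edgeR's test did not call. The log2 difference, WT minus knockout, was -2.83 for Hba-a1, -2.92 for Hbb-bt, -2.69 for Il1rn, -3.44 for Tmprss11g, 0.95 for Nav3, 1.34 for Rab43 and -6.79 for Gm14387. Gm14387 was at 0.78 to 1.07 TPM in GC_WT and 0.47 to 1.26 TPM in FL_WT, and was listed at 0 in the 3 GC_KO mice. Adjusted p-values in DESeq2 were 0.0123 to 0.0331 and in edgeR 0.752 to 0.932.

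All mice of one genotype moved one way and all of the other the opposite way in 3 lists, and these differences were not tested. The WT minus knockout difference of the list medians was -1.22 for the erythroid list, -2.68 for the neutrophil granule list and -0.04 for the dentin and dental mesenchyme list. In the last, WT flight mice lay between -0.04 and -0.03 and knockout flight mice between 0.01 and 0.02 of their ground means on the log2 scale. The neutrophil granule value rests on 3 genes that passed the count filter through the WT ground mice, where they were high, so that its WT direction was fixed by that selection.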

How the results depend on the processing

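Depth bears on marrow genes in that 15 of 25 erythroid and 3 of 23 neutrophil granule genes passed the count filter. Of the settings compared, the number of genes called by flight in WT was 0 in edgeR with RLE factors, with only the WT groups and with FL04 included, 61 in DESeq2, 2 in limma with a pseudocount of 1 or 0.1, 86 without the filter on low counts, and 0 to 12 with 1 mouse left out. In limma 739 genes (pseudocount 1) and 729 (0.1) were at an unadjusted p under 0.05, against 1420 of more tested genes in edgeR. Calls in the knockouts were 7 in DESeq2, 2 and 1 in limma with pseudocounts of 1 and 0.1, and 6 without the filter. Calls for the difference between genotypes were 7, 1, 1 and 12 in the same order, and 0 to 2 with 1 mouse left out. The cause of these differences was not tested.

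Among list medians, the erythroid list was at -0.66 with only the WT groups and -0.23 with FL04 included, and at -1.48 to -0.36 with 1 mouse left out. Without GC03 or GC08, with only the WT groups or with FL04 included, the neutrophil granule list gave no median. DESeq2 gave -0.96 for the neutrophil granule and -0.48 for the platelet list, which was at -0.44 without the filter. In limma, with pseudocounts of 1 and 0.1, the dentin list was at 0.04 and 0.05, the platelet list at -0.20 and -0.22, and under both the osteoblast, cartilage and marrow stroma lists at 0.04, the periodontal list at 0.13 and the collagen processing list at 0.15. With 1 mouse left out, medians were 0.07 to 0.35 for enamel, -0.08 to 0.00 for dentin, -0.06 to 0.02 for osteoblast, 0.11 to 0.34 for osteocyte, -0.34 to 0.05 for cartilage, 0.01 to 0.14 for periodontal ligament, -0.26 to 0.22 for B lymphocyte, -0.08 to 0.01 for marrow stroma and -0.17 to -0.01 for platelet genes. The cause of these shifts was not tested.

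Fold changes near 0 turned sign in some of the genes named. In limma, under both pseudocounts, Pdk4 was at 0.07 and Krt5 at 0.04. With 1 mouse left out, log2 fold changes were -0.11 to 0.43 for Amelx, -0.13 to 0.39 for Ambn, -0.03 to 0.46 for Klk4, -0.02 to 0.17 for Ctsk, -0.03 to 0.13 for Axin2, -0.06 to 0.05 for P4ha1, -0.03 to 0.25 for Postn, -0.09 to 0.13 for Pecam1, -0.09 to 0.04 for Krt5 and -0.15 to 0.15 for Pdk4. Without sign change, they were 0.24 to 0.74 for Acp5, 0.31 to 0.79 for Mmp9, 0.07 to 0.25 for Mmp20, -0.50 to -0.25 for Odaph, 0.16 to 0.42 for Dspp, 0.19 to 0.38 for Col12a1, 0.52 to 1.17 for Fkbp5 and -0.72 to -0.38 for Pf4.

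FL_WT and GC_WT share only the number 03, which marks different animals, so no paired analysis of flight was possible. Between bones, with the mouse as replicate block, 2330 genes were at an unadjusted p under 0.05, and 2574 with only the TpB libraries of the 6 mice but no block, against 590. The knockout and genotype values under each setting were added after the data were seen.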
